A study of Mus musculus with 8 samples.

Results

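The effect of W20 on gene expression was compared between neural progenitor cells and cells at 72 h of reprogramming, with all 8 arrays of the series. The cells were N31, a line of neural progenitors (NPC) that came from mouse embryonic stem cells; they expressed W20, or EGFP, a fluorescent protein, in its place as control. The series title places W20 among bacterial proteins tied to the speed of reprogramming, and nothing more is said of it here. The 4 groups of 2 arrays each were EGFP NPC and W20 NPC, and EGFP and W20 cells at 72 h. The growth protocols of all 4 groups name EGF and bFGF at 10 ng/ml each, in an NPC medium. The 72 h cells had received Dox at 40 ng/ml throughout: their NPC medium was replaced after 48 h, for the last 24 h, by GMEM with 10% KSR, ACTH, pyruvate, amino acids, 2-mercaptoethanol and LIF at 1000 U/ml. The wording leaves unclear whether EGF and bFGF were in it too. The stage effects of W20 are thus W20 minus EGFP in NPC and W20 minus EGFP at 72 h, and the quantity of interest is the second minus the first. Of 18842 genes with a named probe, 13617 were tested, those whose probe stood well above background in both replicates of 1 group or more. All cells came from 1 line, and nothing in the labels says that replicates were separate cultures; the p-values therefore measure how far these arrays spread, which may be technical.

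Reprogramming turns a specialised cell towards pluripotency, classically through the transcription factors Oct4 (Pou5f1), Sox2, Klf4 and Myc. In its first days cells typically leave their old identity, change cytoskeleton and metabolism and respond to new medium, here with LIF, a cytokine that acts through STAT3 and sustains mouse pluripotent cells. A treatment may act alike before and during the change, act at 1 stage, or act in opposite directions. The difference of the stage effects, read together with both effects, can sort genes into these cases.

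All 4 NPC arrays lay on 1 slide and all 4 arrays of 72 h on another, so stage and slide cannot be told apart, and W20 arrays held the last 2 positions of both slides. A slide effect that adds the same amount to EGFP and W20 arrays, or a position effect common to both slides, cancels in the difference of the stage effects. Within a stage, however, W20 and position cannot be told apart. A position effect common to both slides would add to both stage effects with the same sign, and so to shared effects. Between 57.0% and 62.4% of spots were well above background, lowest on the W20 arrays at 72 h (59.0% and 57.0%). Replicates correlated with r of 0.99895 to 0.99917 over the 12155 genes with a probe well above background on every array, with a median SD of 0.0302 to 0.0408 log2 units. Of 10 neural progenitor markers, 7 were well above background on all 8 arrays, among them Nes, Sox2 and Pax6, and Olig2 on none. Of 6 immune markers 4 were above it on no array, 1 had no named probe, and Cd3e was above it on all 8. Of 5 endothelial markers Pecam1 and Cdh5 were above it on none, Kdr on 4, Tek on 3 and Cldn5 on 1. Kdr and Tek had more signal at 72 h than in NPC. Of 7 pluripotent markers 3 were above it on all 8 arrays, Pou5f1 on none, and Nanog had no named probe. Among fibroblast or mesenchymal markers 5 of 7 were above it on all. In these bulk samples, fewer cells of a type and less RNA per cell cannot be told apart.

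W20 changed many genes at both stages, and for 30.9% of the genes tested the size or the direction of its effect differed between the stages. In NPC 7551 genes passed the test (55.5%; 31.8% higher and 23.6% lower with W20), and at 72 h 7182 (52.7%; 28.4% higher and 24.4% lower). Both splits depended on the scaling. In NPC 57.4% of the calls were higher, against 63.5% with median, 49.5% with quantile and 49.9% with spike-in scaling, which sets each array by its added spike-in RNA. At 72 h 53.8% were higher, against 53.8%, 47.7% and 39.6%. The difference of the effects passed for 4201 genes, with 1899 higher (13.9%) and 2302 lower (16.9%) at 72 h than in NPC, by limma with Benjamini-Hochberg adjustment over all genes and a threshold of 0.05. Most of these differences were small: the median size was 0.40 log2 units, the median standard error (SE) of a difference was 0.0696, and 288 genes (2.12%) were higher and 248 (1.82%) lower by at least 2-fold. With spike-in scaling 862 were higher and 1044 lower.

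Across genes the stage effects were related but far from identical. They share no array, but both set the same slide positions against each other. Over all tested genes Pearson's r was 0.409 and Spearman's rho 0.472 (0.512 and 0.533 for the 12155 genes with signal well above background on every array). These values are a description across genes, which are not independent replicates. Of 5005 genes called at both stages, 4259 (85.1%) had the same sign and 746 opposite signs. At least 2-fold effects were seen for 554 genes in NPC (1.12% higher and 2.95% lower of all tested) and for 455 at 72 h (0.911% higher and 2.43% lower). Of the 554 genes, 313 were called at 72 h with the same sign and 57 with the opposite sign, and 184 were not called there. Of the 455 genes, 288 were called in NPC with the same sign and 36 with the opposite sign, and 131 were not called. Both effects were at least 2-fold with the same sign for 128 genes, which is 23.1% of the 554 and 28.1% of the 455.

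**Figure D1:**
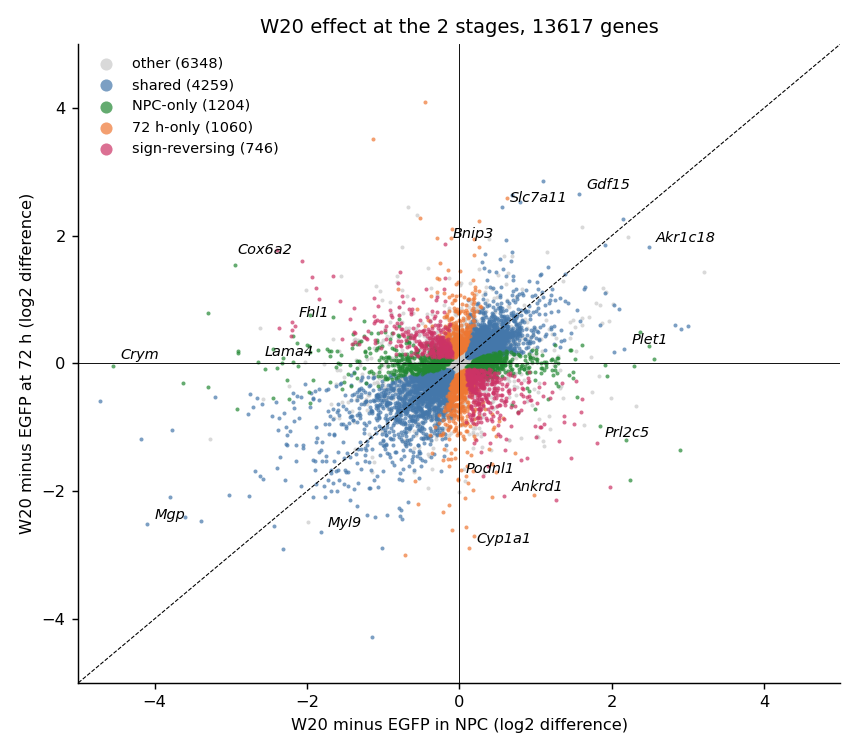
Each point is 1 of 13617 genes, with the W20 effect in NPC on the horizontal and at 72 h on the vertical axis (log2 differences of 2 against 2 arrays); colours give the classes, numbers in brackets their sizes, and the dashed line marks equal effects. Shared effects (4259 genes) fill the lower left and upper right of the plot and the 746 sign-reversing genes the upper left and lower right, as the class rule requires, while Crym and Lama4 lie near the horizontal axis and Cyp1a1 and Bnip3 near the vertical axis.

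Genes were sorted by which of the 3 contrasts passed. A shared effect passed at both stages with 1 sign; a stage-only effect passed at 1 stage and in the difference, but not at the other stage; a sign-reversing effect passed at both stages with opposite signs and in the difference. There were 4259 shared, 1204 NPC-only, 1060 72 h-only and 746 sign-reversing genes; 53 passed in the difference alone, 2459 passed at 1 stage without a difference and 3836 in nothing. Among the shared genes the difference did not pass for 3121, and it passed for 507 that had the larger effect at 72 h and 631 with the larger effect in NPC. NPC-only genes were higher with W20 in 651 cases and lower in 553, 72 h-only genes higher in 464 and lower in 596. Sign-reversing genes were higher with W20 in NPC and lower at 72 h in 411 cases and the other way in 335. Without EGFP NPC replicate 2 there were 774 NPC-only genes, and without EGFP replicate 1 of 72 h 697 72 h-only genes.

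Missing a threshold does not show that an effect is absent, so a stricter sorting used sizes and intervals, for genes measured well above background on every array. Strong shared effects were at least 2-fold at both stages, strong stage-only effects at least 2-fold at 1 stage with a 95% interval within ±0.5 log2 units at the other, and strong sign-reversing effects at least 0.5 log2 units at each stage. There were 64 strong shared genes, of which 52 were lower and 12 higher with W20, against 65 NPC-only (40 lower, 25 higher), 62 72 h-only (45 lower, 17 higher) and 55 sign-reversing genes (34 from higher to lower, 21 from lower to higher). The interval admits small effects, so a few genes strong at 1 stage also passed, weakly, at the other. A second probe, not used in the sorting, was there for 15, 18, 17 and 16 genes of these classes. It gave the same signs in the contrasts that define the class for 14, 18, 14 and 15 of them, and in 1 gene, a 72 h-only one, it passed with the opposite sign.

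The strong shared genes were led, among the lower ones, by secreted matrix proteins and a contractile protein. Signals are log2 values relative to each array's 75th percentile. Mgp, the matrix Gla protein that restrains calcification, measured -0.53 and -0.18 with EGFP and -4.44 and -4.47 with W20 in NPC, and -2.10 and -1.97 with EGFP and -4.68 and -4.42 with W20 at 72 h. Its W20 arrays lay far below the EGFP arrays at both stages, and with an EGFP level that was itself lower at 72 h the W20 effect went from -4.10 ± 0.14 (SE, n = 2 arrays per group) to -2.52 ± 0.14 (adjusted p = 0.00313 for the difference of 1.58). Col8a2, a chain of the short-chain collagen VIII, measured -0.58 and -0.21 with EGFP and -3.04 and -3.28 with W20 in NPC, and -1.51 and -1.48 with EGFP and -3.53 and -3.62 with W20 at 72 h. Its effects were -2.76 and -2.08; the difference passed (adjusted p = 0.0446) but missed the threshold with median scaling (adjusted p = 0.0536) and without any 1 of 7 arrays (adjusted p = 0.0527 to 0.121); only without EGFP NPC replicate 1 did it pass.

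Myl9, a regulatory light chain of smooth muscle and non-muscle myosin, measured 3.54 and 3.76 with EGFP and 1.88 and 1.79 with W20 in NPC, and 4.35 and 4.25 with EGFP and 1.67 and 1.64 with W20 at 72 h. Here the effect grew from -1.82 ± 0.0807 to -2.64 ± 0.0807 (adjusted p = 0.00459), with EGFP arrays that were higher at 72 h and W20 arrays that were not. Mfap4, a protein of elastic microfibrils, was lower with W20 by effects of -2.58 in NPC and -1.81 at 72 h (adjusted p = 0.0161 for the difference), a difference that missed the threshold without W20 NPC replicate 2, either EGFP array of 72 h or W20 replicate 1 of 72 h (adjusted p = 0.0533 to 0.0572). The other strong shared lower genes included the growth factor receptors Egfr (-1.51 and -1.48) and Pdgfrb (-2.26 and -1.12), the chemokine Cxcl12 (-1.49 and -1.70), the ligand Bmp4 (-1.33 and -1.35), and the interneuron homeobox factors Dlx1 (-1.88 and -1.23) and Dlx2 (-1.49 and -1.01). These 6 genes were chosen after their values were seen.

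Of the 12 strong shared higher genes, Akr1c18, which inactivates progesterone, measured -2.48 and -2.62 with EGFP and -0.12 and -0.01 with W20 in NPC, and -0.70 and -0.73 with EGFP and 1.10 and 1.10 with W20 at 72 h. W20 raised it at both stages, more in NPC (2.49 ± 0.0577) than at 72 h (1.82 ± 0.0577; adjusted p = 0.00292). Gdf15, a stress-induced cytokine and an ATF4 target, measured -1.22 and -1.35 with EGFP and 0.29 and 0.27 with W20 in NPC, and -3.43 and -3.42 with EGFP and -0.88 and -0.68 with W20 at 72 h. Its EGFP arrays were lower at 72 h than in NPC, and the W20 effect was 2.97-fold in NPC and 6.25-fold at 72 h (adjusted p = 0.00148). Stc2, the secreted glycoprotein stanniocalcin 2, measured -1.79 and -1.99 with EGFP and -0.66 and -0.68 with W20 in NPC, and -1.47 and -1.56 with EGFP and -0.33 and -0.37 with W20 at 72 h. Its effects of 1.22 and 1.17 had a difference with a 95% interval of -0.30 to 0.20. Esx1, an X-linked homeobox gene best known from placenta, was raised at both stages (1.16 and 1.52). The difference of these effects missed the threshold (adjusted p = 0.0563).

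**Figure D2:**
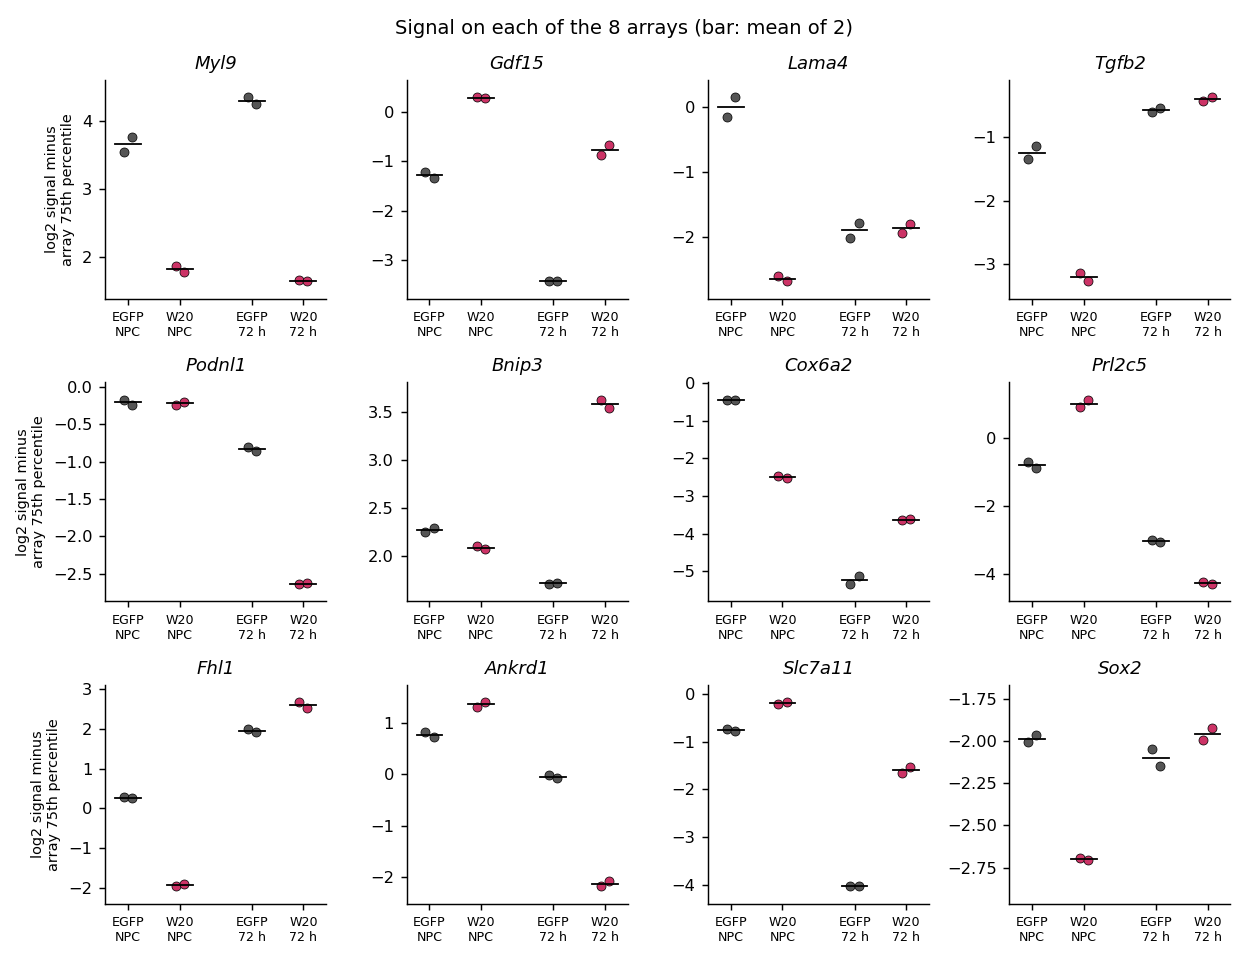
Signal of 12 genes on each of the 8 arrays, as log2 minus the array's 75th percentile; points are arrays, bars the mean of 2, grey is EGFP and red W20, and each panel has its own vertical scale. For Lama4 and Tgfb2 the W20 arrays stand apart in NPC, for Podnl1 and Bnip3 at 72 h, and for Cox6a2, Prl2c5, Fhl1 and Ankrd1 they lie on opposite sides of EGFP at the 2 stages.

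Of the 65 genes with effects strong in NPC and bounded near zero at 72 h, the most extreme in each direction are described. Lama4, a laminin chain of blood vessel and muscle basement membranes, measured -0.15 and 0.16 with EGFP and -2.60 and -2.69 with W20 in NPC, and -2.01 and -1.78 with EGFP and -1.93 and -1.80 with W20 at 72 h. Its W20 arrays were lower in NPC and overlapped EGFP at 72 h, where the EGFP level was itself lower: the effects were -2.65 ± 0.125 and 0.03 ± 0.125 (adjusted p = 0.000445 for the difference). All 3 Lama4 probes tested gave this pattern. Tgfb2, a TGF-beta ligand, measured -1.35 and -1.14 with EGFP and -3.14 and -3.28 with W20 in NPC, and -0.61 and -0.54 with EGFP and -0.44 and -0.37 with W20 at 72 h. In NPC the W20 arrays were far below EGFP and at 72 h slightly above, with effects of -1.97 ± 0.0817 and 0.17 ± 0.0817 (adjusted p = 0.000277).

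Tbx2, a T-box repressor that acts in growth control and eye and heart patterning, had effects of -1.86 and 0.21 (adjusted p = 0.000247), and Rgs2, which shortens signalling by Gq-coupled receptors, of -1.71 and 0.19 (adjusted p = 0.000247). Their small effects of 72 h missed the threshold, and passed it when either EGFP NPC array was left out (adjusted p = 0.0128 to 0.0291). Among higher genes, Plet1, a surface glycoprotein of early epithelial progenitors, measured -2.11 and -2.24 with EGFP and -0.06 and 0.04 with W20 in NPC, and -3.20 and -3.13 with EGFP and -2.89 and -3.01 with W20 at 72 h. W20 raised it 4.47-fold in NPC, and at 72 h its arrays lay just above EGFP (0.22 ± 0.0695, adjusted p = 0.0412). That small effect missed the threshold with median (adjusted p = 0.0752) and spike-in scaling (0.121) and without any of 5 single arrays (adjusted p = 0.0524 to 0.174). A second probe gave 2.31 in NPC and -0.51 at 72 h. Plet1 is thus left without a direction at 72 h. Col5a3, a collagen V chain, went from 2.03 to 0.18 (adjusted p = 0.000116), Acsbg1, an acyl-CoA synthetase of brain and gonads, from 1.53 to -0.27 (adjusted p = 0.000247), and the ligand Wnt9a from 1.52 to 0.07 (adjusted p = 0.00105).

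Some NPC-only genes were not measurable on the W20 arrays of NPC, so their effect there is a bound: the EGFP mean is set against a detection limit, taken per W20 array as the lowest signal still well above background, or the probe's own signal where that was higher. Crym, a thyroid hormone-binding crystallin, measured -1.65 and -1.44 with EGFP and -6.29 and -5.88 with W20 in NPC, and -0.88 and -0.82 with EGFP and -0.91 and -0.88 with W20 at 72 h. It was at least 14.9-fold lower with W20 in NPC and near equal at 72 h (-0.05 ± 0.139; adjusted p = 0.00024 for the difference). Prss12, the neuronal protease neurotrypsin, was at least 4.34-fold lower in NPC, against 0.15 ± 0.268 at 72 h (adjusted p = 0.00302). Mycn, a Myc family factor of neural progenitors, measured -1.90 and -1.80 with EGFP and -5.35 and -4.94 with W20 in NPC, and -2.55 and -2.72 with EGFP and -2.88 and -3.13 with W20 at 72 h. With 1 of 2 W20 arrays well above background in NPC, the effect there has no measured size. At 72 h it was -0.37 ± 0.154, and the difference passed (adjusted p = 0.000644).

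Effects seen at 72 h and bounded near zero in NPC were decreases in 45 of 62 cases, beside 331 of the 455 genes changed at least 2-fold at 72 h. Drd4, a dopamine receptor, measured -1.54 and -1.57 with EGFP and -1.85 and -1.69 with W20 in NPC, and -1.71 and -1.85 with EGFP and -4.00 and -4.20 with W20 at 72 h. The 6 arrays other than W20 at 72 h lay close together and those 2 lay far below, with effects of -0.22 ± 0.0899 and -2.32 ± 0.0899 (adjusted p = 0.000369). Podnl1, a leucine-rich repeat matrix protein, measured -0.17 and -0.24 with EGFP and -0.24 and -0.20 with W20 in NPC, and -0.80 and -0.86 with EGFP and -2.64 and -2.63 with W20 at 72 h. The NPC groups overlapped, and at 72 h the effect was -1.80 ± 0.0403 (adjusted p = 0.000116 for the difference). Adra1b, an adrenergic receptor, went from -0.02 in NPC to -1.83 at 72 h (adjusted p = 0.000247), and Spns3, a transporter-like protein, from -0.13 to -2.21 (adjusted p = 0.000231).

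Cyp1a1, the detoxifying enzyme induced through the aryl hydrocarbon receptor, measured -4.45 and -4.42 with EGFP and -4.41 and -4.21 with W20 in NPC, and -2.48 and -2.42 with EGFP and -5.34 and -5.35 with W20 at 72 h. EGFP cells had more of it at 72 h than in NPC and W20 cells had less, below the detection limit, so it was at least 6.7-fold lower with W20 at 72 h (0.13 ± 0.0677 in NPC; adjusted p = 0.000116 for the difference). Of the 17 higher genes, Bnip3, a hypoxia-induced mitophagy receptor, measured 2.25 and 2.29 with EGFP and 2.11 and 2.07 with W20 in NPC, and 1.71 and 1.72 with EGFP and 3.63 and 3.55 with W20 at 72 h. With EGFP it was lower at 72 h than in NPC, with W20 it was higher, and the effects were -0.18 ± 0.0392 and 1.88 ± 0.0392 (adjusted p = 0.000116). The small negative effect in NPC, which by p alone made it sign-reversing, lost its call with median (adjusted p = 0.128) and with spike-in scaling (0.0564). Smtnl2, related to smoothelin, went from -0.20 to 1.17 (adjusted p = 0.000247). Qrfprl, a receptor-like gene, was well above background on the W20 arrays of 72 h alone, at least 3.79-fold above EGFP there; its NPC arrays bound no effect.

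The sign-reversing genes went through zero with both effects of a readable size. Cox6a2, the heart and muscle isoform of a cytochrome c oxidase subunit, measured -0.43 and -0.45 with EGFP and -2.48 and -2.52 with W20 in NPC, and -5.34 and -5.13 with EGFP and -3.65 and -3.61 with W20 at 72 h. W20 arrays lay 4.17-fold below EGFP in NPC and 3.04-fold above at 72 h, on a level that was much lower in both (-2.06 ± 0.0685 and 1.61 ± 0.0685; adjusted p = 0.000116). Catsperz, a sperm ion channel subunit, had effects of -0.79 and 0.88 (adjusted p = 0.000725). Celsr1, a cadherin of planar cell polarity, measured -1.95 and -1.72 with EGFP and -2.69 and -2.57 with W20 in NPC, and 0.98 and 1.1 with EGFP and 1.75 and 1.82 with W20 at 72 h. Its effects were -0.79 and 0.76, and at 72 h all 4 arrays lay above all 4 NPC arrays. Saa3, an acute-phase serum amyloid A, went from -1.13 to 0.74 (adjusted p = 0.00232).

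In the other direction, Prl2c5, a proliferin of the prolactin family whose copies are nearly identical and may share a probe, measured -0.70 and -0.88 with EGFP and 0.90 and 1.14 with W20 in NPC, and -3.001 and -3.07 with EGFP and -4.25 and -4.30 with W20 at 72 h. W20 raised it in NPC (1.81 ± 0.0928) and lowered it at 72 h (-1.24 ± 0.0928; adjusted p = 0.000231 for the difference), and a second probe gave 1.83 and -1.32. Cldn6, a claudin of embryonic epithelia, measured 0.03 and -0.19 with EGFP and 1.34 and 1.51 with W20 in NPC, and -2.85 and -3.07 with EGFP and -3.92 and -3.91 with W20 at 72 h. It went from 1.51 ± 0.109 to -0.95 ± 0.109 (adjusted p = 0.000395), and Lect2, a secreted chemotactic factor, from 1.07 to -0.99 (adjusted p = 0.00136).

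The classes were then read across gene groups, each set beside all genes tested, whose median difference was -0.02. Of those 13617 genes 4259 were shared, 1204 NPC-only (8.84%), 1060 72 h-only (7.78%) and 746 sign-reversing (5.48%). In the difference 13.9% of them were higher and 16.9% lower. Of each list up to 3 members with the largest called difference and the largest in the other direction are given by rule, and further members were chosen after their values were seen. Of 32 ATF4 amino acid response genes, which ATF4 switches on when amino acids are short or stress halts translation, 30 were higher with W20 in NPC and 32 at 72 h, and in the difference 18 were higher and 1 was lower (background 13.9% and 16.9%). The class was shared for 30 of the 32, with 16 larger at 72 h, and the median effect was 0.54 in NPC and 0.91 at 72 h, with a median difference of 0.36. With spike-in scaling 11 were higher in the difference.

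Slc7a11, the cystine importer of system xc-, measured -0.73 and -0.78 with EGFP and -0.21 and -0.17 with W20 in NPC, and -4.03 and -4.03 with EGFP and -1.65 and -1.52 with W20 at 72 h. Its EGFP arrays were far lower at 72 h, and W20 raised it 1.48-fold in NPC and 5.43-fold at 72 h (1.88 ± 0.0697, adjusted p = 0.000166); all 3 probes tested gave this order. Chac1, which degrades glutathione, went from 1.09 to 2.86 (adjusted p = 0.000725), the pseudokinase Trib3 from 0.80 to 2.52 (adjusted p = 0.000366), and asparagine synthetase, Asns, from 0.36 to 1.31. Atf4 itself had effects of 0.71 and 1.30. Cebpg, a dimer partner of ATF4, was the member with a smaller effect at 72 h (0.56 against 0.35; adjusted p = 0.0185), a call that ended with median scaling (adjusted p = 0.105) and without any of 5 single arrays (adjusted p = 0.0516 to 0.0642). The mean over its 3 probes gave a difference of -0.066 (adjusted p = 0.378), and 1 probe went from 0.18 to 0.28. The direction of Cebpg in the difference is not settled.

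For some lists, promoters were searched for the letters bound by the factor tied to the list. Such lists hold known targets of that factor, so more matches than over all genes do not bear on the W20 effect. Promoter windows of 300 bases, from 250 before to 50 after the start, came from RefSeq (GRCm38.p6) for 10858 of the tested genes, and a match is a description, not a site in use. The CARE motif TGATGNAA, the letters of a C/EBP-ATF composite element, was searched on both strands and stood in the windows of 9 of 26 ATF4 list genes (34.6%) and of 304 of all tested genes (2.8%). It stood in 3 of 41 strong shared genes with a window, 1 of 49 NPC-only, 3 of 43 72 h-only and 3 of 38 sign-reversing genes. For Slc7a11 and Chac1, the list members with the largest differences, the stretch before the start is shown with the matches in capitals; the copies in Slc7a11 face each other, 66 and 47 bases before the start, and that of Chac1 begins 193 bases before it.
Slc7a11 (chr3:50443614-50443719, minus strand): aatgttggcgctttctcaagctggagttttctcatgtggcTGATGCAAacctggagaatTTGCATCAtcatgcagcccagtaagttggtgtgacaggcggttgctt
Chac1 (chr2:119351009-119351096, plus strand): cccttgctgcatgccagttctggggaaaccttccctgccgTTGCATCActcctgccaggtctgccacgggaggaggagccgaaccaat

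Most hypoxia and glycolysis genes had a higher W20 effect at 72 h than in NPC. Of 25 hypoxia targets outside glycolysis, 9 were higher and 8 lower with W20 in NPC, 19 higher and 4 lower at 72 h, and in the difference 16 were higher and 2 lower, with a median of 0.48; 6 were 72 h-only, 4 went from lower to higher and 12 were shared. Ankrd37, an ankyrin repeat protein induced by HIF, measured -0.48 and -0.45 with EGFP and -0.61 and -0.55 with W20 in NPC, and -1.35 and -1.20 with EGFP and 0.76 and 0.62 with W20 at 72 h. NPC groups differed little and the W20 arrays of 72 h were the highest of all (-0.12 ± 0.07 and 1.97 ± 0.07; adjusted p = 0.000247). Adm, the vasodilator adrenomedullin, reversed from -1.32 ± 0.0378 to 0.30 ± 0.0378 (adjusted p = 0.000129), P4ha1, a collagen prolyl hydroxylase, from -0.32 to 0.60, and the histone demethylase Kdm3a from -0.31 to 0.33. Vegfa, the vascular growth factor, was higher at both stages (0.69 and 1.74). The collagen-modifying enzymes Loxl2 (-0.43) and Plod1 (-0.30) had the lower differences.

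Of 22 glycolysis genes 12 were higher and 1 lower in the difference, with a median of 0.20, and 15 were shared. Slc16a3, the lactate exporter MCT4, measured 4.04 and 4.10 with EGFP and 4.09 and 4.06 with W20 in NPC, and 2.69 and 2.69 with EGFP and 4.14 and 4.13 with W20 at 72 h. The 6 arrays other than EGFP at 72 h were level and those 2 were lower, so the effect was 0.01 ± 0.0325 in NPC and 1.44 ± 0.0325 at 72 h (adjusted p = 0.000116). Pdk1, which closes the path of pyruvate into the mitochondrion, reversed from -0.29 to 0.81 (adjusted p = 0.000247) and Aldoc, an aldolase also used as an astrocyte marker, from -0.65 to 0.40 (adjusted p = 0.000247). The lower one was Pfkfb4, a regulator of the pathway's committed step (0.16 and -0.31; adjusted p = 0.00391), and with spike-in scaling 5 glycolysis genes were higher.

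The core of the hypoxia response element, ACGTG on either strand, stood in the windows of 14 of 19 hypoxia genes (73.7%) and 13 of 21 glycolysis genes (61.9%), against 28.4% of all tested genes. In strong 72 h-only genes it stood in 10 of 43 (23.3%). Slc16a3 and Bnip3 are shown as strong 72 h-only members whose matches lie close together; Slc16a3 has them 27 and 14 bases before it, and in Bnip3 matches on both strands overlap in CACGTG, 108 bases before it.
Slc16a3 (chr11:120949000-120949066, plus strand): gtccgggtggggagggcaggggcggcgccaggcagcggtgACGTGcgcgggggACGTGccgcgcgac
Bnip3 (chr7:138909569-138909654, minus strand): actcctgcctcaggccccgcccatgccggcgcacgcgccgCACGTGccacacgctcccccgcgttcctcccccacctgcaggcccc

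Lipid synthesis genes also had mostly higher W20 effects at 72 h. Of 26 cholesterol synthesis genes, controlled together by SREBP2, 14 were higher and 3 lower with W20 in NPC and 23 higher and 0 lower at 72 h in limma (also 0 lower at an unadjusted p under 0.05). In the difference 19 were higher and 1 lower, the median was 0.39, and 8 were 72 h-only. Hmgcs1, which makes HMG-CoA for the pathway, measured 5.08 and 5.15 with EGFP and 4.87 and 4.97 with W20 in NPC, and 5.04 and 4.99 with EGFP and 5.58 and 5.60 with W20 at 72 h. W20 arrays lay slightly below EGFP in NPC and above at 72 h (-0.19 ± 0.0472 and 0.57 ± 0.0472; adjusted p = 0.00102), but the call in NPC ended under 2 scalings (adjusted p = 0.0741 by the median and 0.107 by spike-in) and when EGFP NPC replicate 2 (0.0947) or W20 NPC replicate 1 (0.0857) was left out. Dhcr7, of the last step, went from -0.13 to 0.58 (adjusted p = 0.000629), and Cyp51, a lanosterol demethylase, from -0.10 to 0.60 (adjusted p = 0.000651). The call of Dhcr7 in NPC ended with median (adjusted p = 0.181) and with spike-in scaling (0.207). Ebp, a sterol isomerase, had the lower difference (-0.27 ± 0.0656, adjusted p = 0.0267), and lost its call with median scaling (adjusted p = 0.0966) and without any of 6 single arrays (adjusted p = 0.055 to 0.084). With spike-in scaling 11 cholesterol genes were higher in the difference.

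Of 15 fatty acid synthesis genes 10 were higher and 0 lower in the difference in limma (also 0 lower at an unadjusted p under 0.05), 4 of them reversing from lower to higher. Acss2, which makes acetyl-CoA from acetate, measured -1.41 and -1.39 with EGFP and -2.05 and -2.08 with W20 in NPC, and -1.48 and -1.56 with EGFP and -0.62 and -0.71 with W20 at 72 h. It reversed from -0.66 ± 0.0449 to 0.85 ± 0.0449 (adjusted p = 0.000231), as did Acacb, the mitochondrial acetyl-CoA carboxylase (-0.91 to 0.33; adjusted p = 0.00067), although its call at 72 h ended without EGFP replicate 2 of that stage (adjusted p = 0.05). Elovl6, an elongase, went from -0.17 to 0.53 (adjusted p = 0.000461), with the NPC call lost under median (adjusted p = 0.0966) and under spike-in scaling (0.0964). With median scaling 6 and with spike-in scaling 5 of the 15 were higher. The sterol element letters TCACNCCAC stood in 1 of 18 cholesterol gene windows, that of Hmgcs1, and in 1.5% of all tested genes; it is shown as the single match of the list, 137 bases before the start.
Hmgcs1 (chr13:119690174-119690262, plus strand): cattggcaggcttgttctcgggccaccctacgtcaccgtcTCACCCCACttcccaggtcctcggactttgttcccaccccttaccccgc

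Actin genes changed the other way. Of 31 genes of the actin cytoskeleton and of SRF, the factor that reads free actin, 13 were lower with W20 in NPC and 24 at 72 h, and in the difference 19 were lower and 2 higher, with a median of -0.23. Without EGFP NPC replicate 1, W20 NPC replicate 2 or EGFP replicate 2 of 72 h 11 were lower, and with spike-in scaling 10. Ankrd1, a mechanosensitive ankyrin repeat cofactor, measured 0.82 and 0.72 with EGFP and 1.31 and 1.40 with W20 in NPC, and -0.02 and -0.06 with EGFP and -2.18 and -2.07 with W20 at 72 h. W20 raised it in NPC and lowered it at 72 h (0.59 ± 0.0581 and -2.08 ± 0.0581; adjusted p = 0.000116). Cnn1, the smooth muscle protein calponin, went from -0.75 to -2.43 (adjusted p = 0.00137), Tagln, transgelin, from -0.79 to -1.81, and the tropomyosins Tpm1 and Tpm2 from 0.01 and 0.14 to -0.62 and -0.83. Fhl1, a LIM-only protein of muscle, went against the group: it measured 0.29 and 0.25 with EGFP and -1.96 and -1.90 with W20 in NPC, and 1.99 and 1.92 with EGFP and 2.68 and 2.52 with W20 at 72 h, and reversed from -2.20 ± 0.0599 to 0.64 ± 0.0599 (adjusted p = 0.000116). Ccn1, a matricellular protein, was the other exception (-1.17 and -0.33).

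The CArG box, the binding letters of SRF, stood in the windows of 10 of 27 actin genes (37.0%) and 1.7% of all tested genes. Fhl1 is shown because it holds a match, 102 bases before its start, and yet moved against the other members.
Fhl1 (chrX:56779541-56779630, plus strand): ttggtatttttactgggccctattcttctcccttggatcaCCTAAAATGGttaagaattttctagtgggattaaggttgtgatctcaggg

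**Figure D3:**
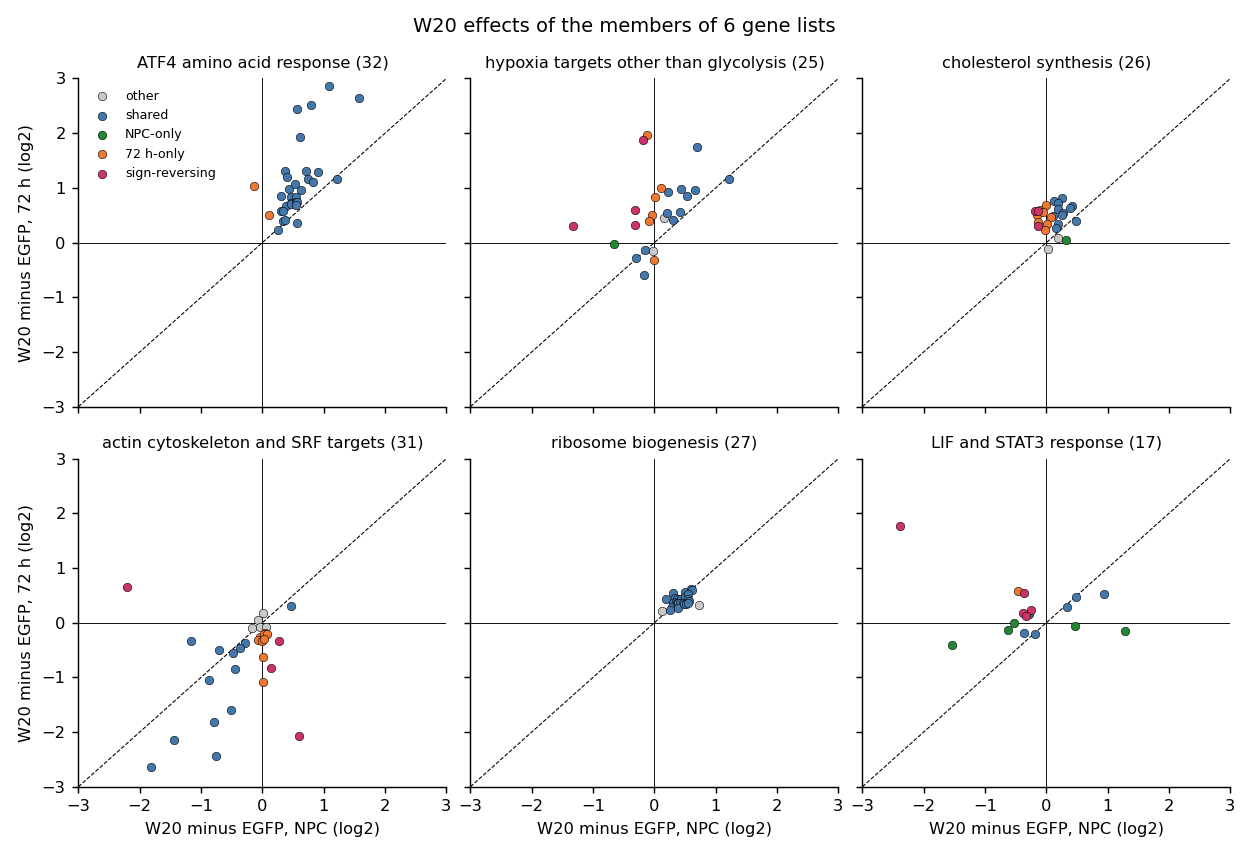
W20 effects of the tested members of 6 gene lists in NPC (horizontal) and at 72 h (vertical), in log2 units; each point is a gene, coloured by class, and points above the dashed line have a higher effect at 72 h. ATF4 genes lie in the upper right and mostly above the line, hypoxia and cholesterol genes rise along the vertical axis, most actin genes lie below the line, and ribosome biogenesis genes sit close to it (median difference -0.02).

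Matrix genes were mostly lower with W20 at both stages, several of them less so at 72 h. Of 31 extracellular matrix genes 22 were lower in NPC and 20 at 72 h, and in the difference 11 were higher and 5 lower. Over all genes 13.9% were higher and 16.9% lower, so the lower count was near that share. Without EGFP replicate 1 of 72 h 7 were higher. Col1a1, the major chain of collagen I, went from -1.84 to -0.40, Col11a1 from -2.18 to -0.61 and Col5a2 from -1.31 to 0.04. Col18a1, the source of endostatin, reversed from 0.28 to -0.57 (adjusted p = 0.000247). Lum, Col6a3 and Postn passed in the difference too, but were dim on at least 1 group's arrays, so no size is given. The 7 fibroblast or mesenchymal markers include Col1a1, Lum and Postn of this group, so their sum is not separate from it. The log2 of their summed signal was 7.20 to 7.39 with EGFP and 6.63 to 6.67 with W20 in NPC, and 7.08 to 7.11 with EGFP and 6.48 to 6.52 with W20 at 72 h. Col1a2, the brightest of them, measured 7.04 with EGFP and 6.51 with W20 in NPC, and 6.90 and 6.34 at 72 h. The part of such cells in the matrix result was not tested.

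Of 24 BMP and TGF-beta genes 4 were higher and 11 lower in the difference. The BMP-induced inhibitors of differentiation Id1 (-0.38 to -1.004) and Id2 (-0.64 to -1.35) and the inhibitory Smad6 (-0.62 to -1.40) were lower with W20 at both stages, further at 72 h. Grem1, a secreted BMP antagonist, was above EGFP in NPC (0.31, a call that ended with spike-in scaling at an adjusted p of 0.0892) and at least 2.15-fold lower at 72 h (adjusted p = 0.000247 for the difference). Sostdc1, another antagonist, was at least 6.75-fold lower in NPC and -0.58 at 72 h (adjusted p = 0.000364).

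Of 15 epithelial genes 9 were higher and 2 lower with W20 in NPC, against 6 higher and 5 lower at 72 h, and 7 were lower and 2 higher in the difference, with a median of -0.39. Krt18, a keratin of simple epithelia, measured 6.79 and 6.72 with EGFP and 7.38 and 7.47 with W20 in NPC, and 5.70 and 5.66 with EGFP and 4.99 and 5.01 with W20 at 72 h. It reversed from 0.68 ± 0.0448 to -0.68 ± 0.0448 (adjusted p = 0.000247), its partner Krt8 went from 0.83 to -0.41 and Krt19 from 1.204 to 0.06. E-cadherin, Cdh1, was higher at both stages (0.65 and 0.26). Tjp3, a tight junction protein, and Cldn3 had the higher differences; Tjp3 was well above background on no NPC array, so its NPC effect has no measured size. The log2 of the summed signal of 5 epithelial markers, Krt8 and Krt18 among them, was 7.14 to 7.21 with EGFP and 7.85 to 7.93 with W20 in NPC, and 6.54 to 6.57 and 5.998 to 6.011 at 72 h; Cldn4 was well above background on no array.

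**Figure D4:**
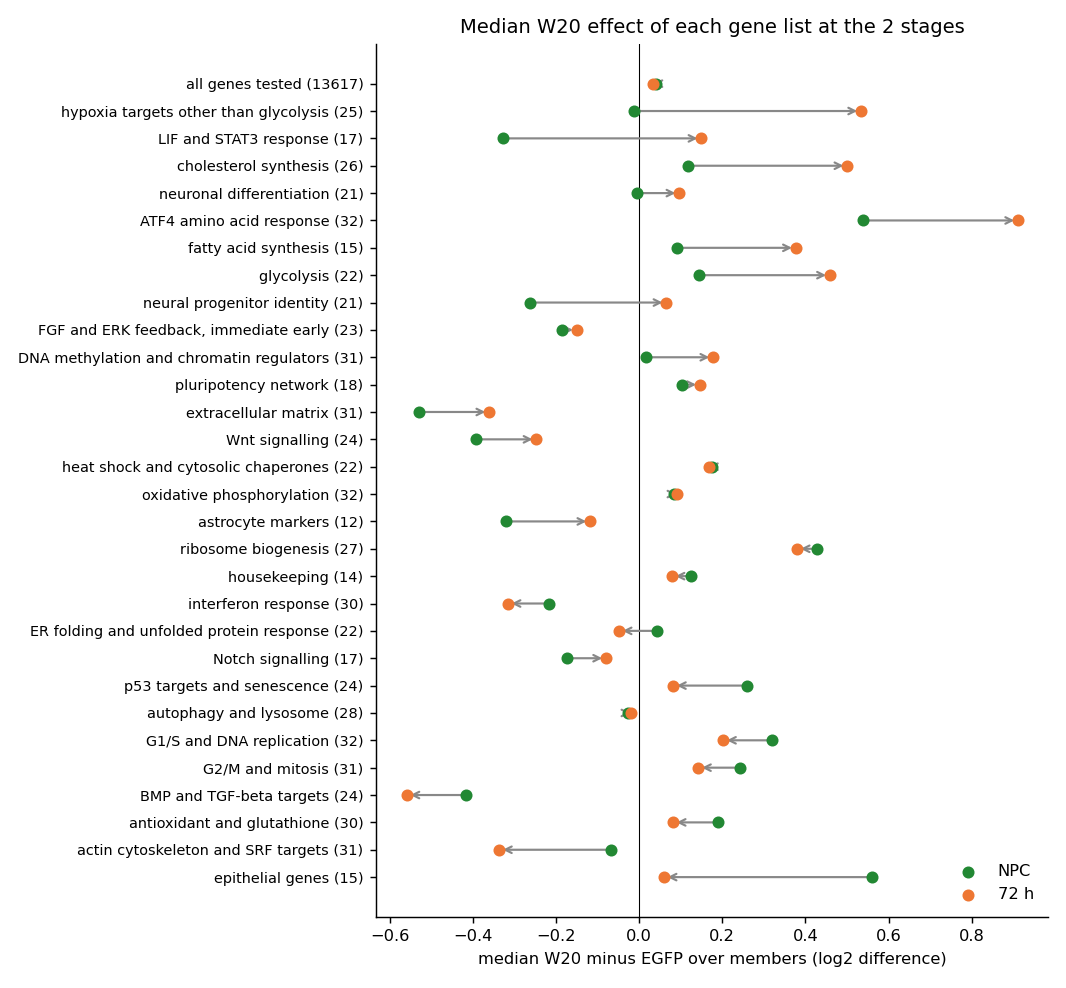
Median W20 effect over the tested members of each gene list with at least 10 tested genes (number in brackets), in NPC (green) and at 72 h (orange), in log2 units; lists are ordered by their median difference and all genes stand on top. The hypoxia list moves from -0.01 to 0.53 and cholesterol synthesis from 0.12 to 0.50, the epithelial list from 0.56 to 0.06, and all genes stay near 0.04 and 0.03.

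Among genes that FGF and ERK induce, the largest W20 effects were decreases in NPC. Of 23 genes, 12 were lower in NPC and 10 at 72 h, and 11 were higher and 4 lower in the difference. Egr1, an immediate early factor, measured 1.502 and 1.69 with EGFP and -1.08 and -1.23 with W20 in NPC, and 0.62 and 0.76 with EGFP and 0.18 and 0.23 with W20 at 72 h. The effect went from -2.75 ± 0.0869 to -0.48 ± 0.0869 (adjusted p = 0.000277), and that of Egr2 from -2.18 to -0.47 (adjusted p = 0.000412). The feedback inhibitors Spry1 and Spry4 went from -1.92 and -1.39 to -0.27 and 0.50 (adjusted p = 0.00227 for the difference of Spry4). The Spry4 effect at 72 h missed the threshold with spike-in scaling (0.46, limma adjusted p = 0.0719), and it was 0.33 without W20 replicate 2 of 72 h. Fosl1, an AP-1 subunit, moved against them (0.99 to -0.14; adjusted p = 0.000537).

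Most LIF and STAT3 genes were lower with W20 in NPC and had a higher effect at 72 h. Of 17 genes, 11 were lower and 5 higher in NPC, 2 lower and 9 higher at 72 h, and in the difference 10 were higher and 3 lower, with a median of 0.45, and 5 reversed from lower to higher. Without W20 NPC replicate 1 or EGFP replicate 1 of 72 h 6 were higher. Stat3 measured 3.73 and 3.82 with EGFP and 3.47 and 3.43 with W20 in NPC, and 4.09 and 4.11 with EGFP and 4.23 and 4.21 with W20 at 72 h. It went from -0.33 ± 0.0406 to 0.12 ± 0.0406 (adjusted p = 0.00337), the kinase Pim1 from -0.36 to 0.55, the feedback inhibitor Socs3 from -0.38 to 0.17 and the receptor Lifr from -0.24 to 0.24. Klf4, a pluripotency factor downstream of STAT3, was higher at both stages, less so at 72 h (-0.42), and with Timp1 (-0.54) and Fgl2 made up the lower differences; the NPC level of Fgl2 was not well above background. Gfap, the astrocyte filament, was well above background on the EGFP arrays of NPC alone, so its differences have no measured size.

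Among cell identity genes, those of pluripotency and of neural progenitors showed no common direction in the difference. Called differences of neuronal genes were mostly higher, with a median difference of 0.38 over that list. Sox2, of the reprogramming and progenitor factors, measured -2.01 and -1.96 with EGFP and -2.69 and -2.71 with W20 in NPC, and -2.05 and -2.15 with EGFP and -1.996 and -1.92 with W20 at 72 h. W20 arrays were below EGFP in NPC and slightly above at 72 h (-0.71 ± 0.0469 and 0.14 ± 0.0469; adjusted p = 0.000725 for the difference), but the call of the small effect at 72 h (adjusted p = 0.0481) ended with median (adjusted p = 0.0797) and with spike-in scaling (0.461) and without any 1 of 7 arrays (adjusted p = 0.0593 to 0.203). Klf4 measured 2.91 and 2.84 with EGFP and 3.80 and 3.82 with W20 in NPC, and 2.01 and 2.03 with EGFP and 2.52 and 2.55 with W20 at 72 h, with no overlap of groups and effects of 0.94 ± 0.0347 and 0.51 ± 0.0347 (adjusted p = 0.00246). Myc measured 1.49 and 1.42 with EGFP and 1.89 and 1.92 with W20 in NPC, and 5.04 and 4.96 with EGFP and 5.62 and 5.60 with W20 at 72 h on its brightest probe, with effects of 0.45 and 0.61 (adjusted p = 0.0922 for the difference). Another Myc probe gave 0.50 and -1.52, a difference of -2.02; since its probes disagree, Myc is left without a direction. Nes, nestin, had a difference of -0.13 ± 0.065 with a 95% interval of -0.29 to 0.04 (adjusted p = 0.201). Pou5f1 reached that level above background on 0 of 8 arrays, and Nanog had no named probe.

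Of 18 pluripotency genes 4 were higher and 5 lower in the difference. Tet2, which oxidises methylcytosine, went from -0.66 to 0.33 (adjusted p = 0.0165), a difference that missed the threshold without either W20 NPC array, EGFP replicate 1 or W20 replicate 2 of 72 h (adjusted p = 0.0515 to 0.0564). Zfp42, known as Rex1, went from -0.54 to 0.12, and Klf5 from 0.66 to -0.15. Of 31 chromatin regulators 12 were higher and 1, Suv39h1, a histone methyltransferase, lower (-0.30; lost with median scaling, adjusted p = 0.0779), and 6 reversed from lower to higher, but 6 were higher without either W20 NPC array, 7 without EGFP replicate 1 of 72 h and 4 with spike-in scaling. Kdm5b, a demethylase of H3K4, reversed from -0.50 to 0.26 (adjusted p = 0.000416), with the call at 72 h lost under spike-in scaling (adjusted p = 0.0805), and Dnmt3a went from -0.46 to 0.04.

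Among 21 neural progenitor genes 5 were higher and 3 lower, with Sox9, a gliogenic factor, reversing from 0.43 to -0.69 and Lhx2 going from -0.77 to 0.05. The log2 of the summed signal of 10 neural progenitor markers was 6.95 to 7.07 with EGFP and 7.11 to 7.24 with W20 in NPC, and 7.09 to 7.27 and 7.10 to 7.16 at 72 h. Of 21 neuronal genes 10 were higher and 2 lower (6 higher without W20 NPC replicate 2 or EGFP replicate 2 of 72 h). Map2, a dendritic microtubule protein, measured -0.30 and -0.11 with EGFP and -1.16 and -1.20 with W20 in NPC, and -0.44 and -0.46 with EGFP and -0.18 and -0.37 with W20 at 72 h. It was lower with W20 in NPC (-0.98 ± 0.0834), and its effect at 72 h missed the threshold (0.17 ± 0.0834; adjusted p = 0.00164 for the difference), Elavl2, a neuronal RNA-binding protein, reversed from -0.54 to 0.60, and Crmp1, of axon guidance, went from 0.07 to -1.18 (adjusted p = 0.000629). The log2 of the summed signal of 7 neuron markers, Map2 among them, was 1.06 to 1.14 with EGFP and 0.64 to 0.69 with W20 in NPC, and 2.95 to 2.97 and 3.20 to 3.27 at 72 h. Map2 was the brightest of them with EGFP in NPC, so the sum there is not separate from it. Of the 4 markers well above background on all arrays, Map2 and Syt1 were lower with W20 in NPC, Stmn2 level and Tubb3 higher. The part of neurons in these genes' values was not tested.

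Ribosome biogenesis genes had mostly shared effects. Of 27 ribosome biogenesis genes 26 were higher with W20 at each stage, 25 were shared, 22 of those without a called difference, and the median effects were 0.43 and 0.38. The 3 called differences were small: Wdr43 0.24, Wdr12 0.23 and Nop2 -0.20, each lost with median scaling (adjusted p = 0.17 to 0.197) and with the mean over a gene's probes (adjusted p = 0.0503 to 0.173). Of 32 genes of G1/S and DNA replication 27 were higher in NPC and 21 at 72 h, with 1 higher and 6 lower in the difference. That lower count was near the share of all genes (16.9%). Tk1, thymidine kinase, went from 0.50 to 0.01 (adjusted p = 0.00144) and the flap nuclease Fen1 from 0.41 to -0.03. Of 31 mitosis genes 3 were lower in the difference, among them the mitotic regulator Foxm1 (0.49 to 0.10; adjusted p = 0.00285), which missed the threshold with spike-in scaling (adjusted p = 0.0525). Of 32 oxidative phosphorylation genes 0 passed in the difference in limma, with 2 higher and 2 lower at an unadjusted p under 0.05, and 3 higher and 1 lower passed with quantile scaling.

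Stress and defence genes differed member by member. Of 30 antioxidant genes 5 were higher and 11 lower in the difference. With spike-in scaling 7 were lower, and 3 were higher with median or spike-in scaling and without either EGFP NPC array or EGFP replicate 2 of 72 h. Besides Cyp1a1, Mgst2, a microsomal glutathione transferase, went from 0.10 to -1.06 (adjusted p = 0.000306), and Gclm, a subunit of glutathione synthesis, from 0.64 to 0.24. Of 30 interferon genes 20 were shared, 21 lower in NPC and 22 at 72 h, and 4 were higher and 8 lower in the difference. Ifit3, an antiviral tetratricopeptide protein, went from -0.68 to 0.15 (adjusted p = 0.0057) and Irgm1, an immunity-related GTPase, from -0.10 to -0.69 (adjusted p = 0.000445). The interferon-stimulated response element, searched by its letters on both strands, stood in the windows of 14 of 27 interferon genes (51.9%) and in 3.5% of all tested genes. The lower count in the difference was 5 without either NPC array of W20, either NPC array of EGFP or W20 replicate 2 of 72 h, 4 with median and 3 with spike-in scaling. Of 24 p53 targets 3 were higher and 5 lower, both near the shares of all genes (13.9% higher and 16.9% lower). Cdkn1a, the p21 inhibitor of the cell cycle, was higher at both stages (1.09 and 1.12). Of 24 Wnt genes 7 were higher and 4 lower, the lower count near the share of all genes. Lef1 went from -0.14 to 0.82 (adjusted p = 0.000678) and Wnt7b from 0.92 to 0.10. Of 17 Notch genes 2 were higher and 3 lower, both near the shares of all genes. Notch3 went from -1.75 to -0.42 (adjusted p = 0.0029).

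**Figure D5:**
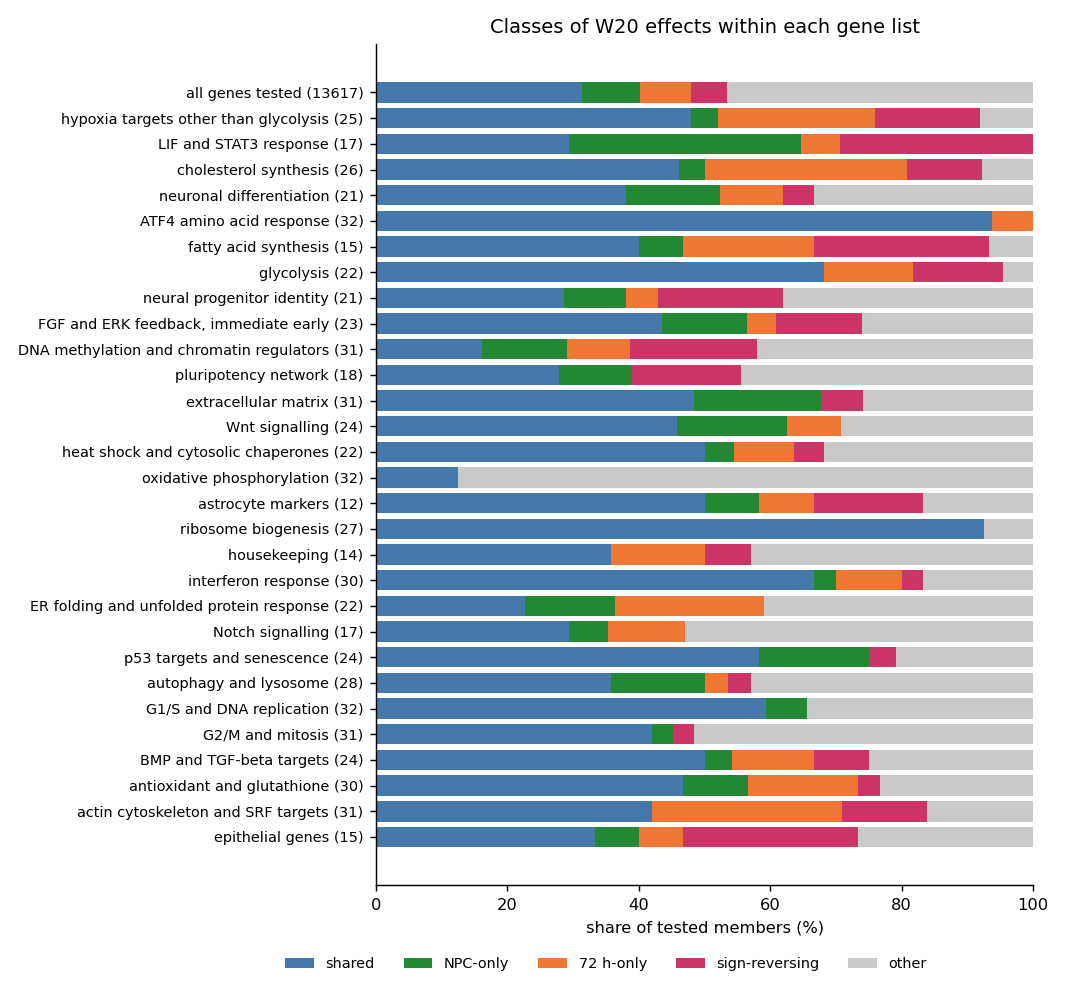
Share of the tested members of each gene list (number in brackets) in each class of W20 effect, in percent; lists are in the order of their median difference and all genes stand on top. Shared effects make up nearly all of the ATF4 (30 of 32) and ribosome biogenesis lists (25 of 27), while 12 of 17 LIF and STAT3 genes and 13 of 31 actin genes are stage-only or sign-reversing. Of all 13617 genes 4259 are shared, 1204 NPC-only, 1060 72 h-only and 746 sign-reversing.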

How the data were processed

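RNA of 8 samples was hybridised to 1-colour (Cy3) mouse 4x44K arrays; the deposited intensity is Feature Extraction's processed signal (version 10.7.3.1 per the file headers), already background-corrected by the scanner software. The authors' deposited log2 value table served as an alternative for NPC; 4 of its columns, those of 72 h, were not used because they do not match their arrays. Here log2 of the processed signal minus each array's 75th percentile (828.8 to 939.7 intensity units) was taken over non-control spots, without outlier spots, and spots of a probe were averaged. Of 41174 probes 27584 gained a symbol by matching the accession in the scanner files to a RefSeq gene table (GRCm38.p6). The brightest probe of a gene over the 8 arrays stood for it. The gene was tested where both replicates of some group stood well above background on that probe. Further probes of a gene counted as tested by the same background rule. No spot was saturated.

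A single model of the 4 group means was fitted with limma 3.58.1 (R 4.3.3), with 3 contrasts, two-sided moderated tests and Benjamini-Hochberg adjustment over 13617 genes. Classes used a threshold of 0.05; strong classes used 1 log2 unit, a band of ±0.5 and 0.5 log2 units for reversal. Named by rule were the 4 most extreme stable genes of each strong class and direction, the 2 largest bounds of each stage, up to 3 members of each of 33 gene lists with the largest called difference plus the largest in the other direction, and Pou5f1, Sox2, Klf4, Myc, Nanog, Nes and Mycn. Some genes that these rules select are not reported here. Members, lists and rules were chosen with earlier results of these data known. Alternatives covered scaling (median, quantile, spike-in), background, filter on dim probes, probe choice, prior, thresholds and leaving out each array. For background, normexp with an offset of 50 intensity units used spot medians, chosen after the files were seen. The number of arrays, 2 per group, limits the precision. On simulated data of 13617 genes with known changes, 20% of changes of 0.3 log2 units in the difference were recovered, 48% of 0.5, 78% of 1 and 96% of 2. Each size was given to 50 genes and the other genes had no difference. False calls made up 5.47% of the calls. In the data far more genes passed in the difference (30.9%), which loosens the Benjamini-Hochberg cutoff. The simulated recovery therefore need not hold for the data.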

Additional observations from a re-analysis of the deposited data

Results flagged for a closer look

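The results below were picked out because the W20 effect differed between NPC and 72 h by limma's test of the difference itself (72 h minus NPC, log2 units, adjusted p under 0.05). Of the 124 named genes, 34 lost that call or turned sign under at least 1 of the alternative settings. Over all genes the difference was higher for 1899 and lower for 2302. Among the strong shared genes the differences were 1.58 for Mgp, 0.68 for Col8a2, -0.82 for Myl9, 0.76 for Mfap4, -0.67 for Akr1c18 and 1.075 for Gdf15. The strong NPC-only genes gave -1.94 for Plet1, -1.85 for Col5a3, -1.80 for Acsbg1, -1.45 for Wnt9a, 2.68 for Lama4, 2.14 for Tgfb2, 2.07 for Tbx2 and 1.90 for Rgs2. The strong 72 h-only genes gave -2.11 for Drd4, -2.08 for Spns3, -1.81 for Adra1b, -1.79 for Podnl1, 2.08 for Ankrd37, 2.06 for Bnip3, 1.44 for Slc16a3 and 1.37 for Smtnl2. The sign-reversing genes gave 3.67 for Cox6a2, 1.67 for Catsperz, 1.55 for Celsr1, 1.87 for Saa3, -3.05 for Prl2c5, -2.06 for Lect2 and -2.46 for Cldn6.

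Stress and metabolism genes followed. ATF4 targets differed by 1.88 for Slc7a11, 1.77 for Chac1, 1.72 for Trib3 and -0.21 for Cebpg, and genes of protein folding in the endoplasmic reticulum by 0.75 for Herpud1, 0.46 for Ppp1r15a and -0.45 for Sdf2l1. Glycolysis and hypoxia genes gave 1.10 for Pdk1, 1.05 for Aldoc, -0.47 for Pfkfb4, 1.62 for Adm and -0.43 for Loxl2. Lipid synthesis genes gave 0.76 for Hmgcs1, 0.71 for Dhcr7, 0.69 for Cyp51, -0.27 for Ebp, 1.51 for Acss2, 1.24 for Acacb and 0.70 for Elovl6. Mgst2, an antioxidant gene, differed by -1.15, the chaperone genes Cryab, Dnajb4 and Hspb8 by -0.51, -0.29 and 0.28, and the lysosome and autophagy genes Ctsl, Npc2 and Wipi1 by -0.44, 0.29 and -0.24. The p53 targets Fas, Gadd45g and Perp differed by 1.04, -0.83 and -0.79, and the interferon genes Ifit1, Ifit3 and Irgm1 by 1.03, 0.84 and -0.59.

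Structure and signalling genes were the actin genes Fhl1 (2.84), Ankrd1 (-2.67) and Cnn1 (-1.68), Col18a1 (-0.85) of the matrix, the keratin Krt18 (-1.36), and the FGF and ERK genes Egr1 (2.27), Spry4 (1.89), Egr2 (1.72) and Fosl1 (-1.13). Notch3 differed by 1.33 and Lef1, of Wnt signalling, by 0.96. Cell cycle genes gave -0.49 for Tk1, -0.44 for Fen1, -0.41 for E2f2, 0.23 for Cdt1, -0.44 for Kif23, -0.38 for Foxm1 and -0.34 for Kif20a, and ribosome biogenesis genes 0.24 for Wdr43, 0.23 for Wdr12 and -0.20 for Nop2. Identity and chromatin genes gave -1.25 for Crmp1, 1.15 for Map2, 0.78 for Sparcl1, -0.36 for Cd44, 0.91 for Pdgfra, 0.99 for Tet2, 0.76 for Kdm5b, 0.66 for Dnmt3b, -0.30 for Suv39h1, 0.85 for Sox2 and -0.42 for Klf4. Genes of other lineages and housekeeping genes gave -0.55 for Flt1, -0.96 for Afp, -0.49 for Eomes, 0.66 for Tfrc, -0.59 for Gusb and -0.47 for Hprt. With normexp background the differences of Eomes (-0.034, adjusted p = 0.866) and Hprt (-0.18, adjusted p = 0.276) did not pass, and Eomes also missed the threshold in 7 other settings (adjusted p = 0.0539 to 0.0803).

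For genes whose probe was not well above background on at least 1 array, the fitted difference is not a measured size and is given only to identify the result. Those values were 4.50 for Crym, 3.05 for Prss12, -3.02 for Cyp1a1, 4.55 for Qrfprl, 2.93 for Mycn, 4.14 for Sostdc1, -2.08 for Grem1, 4.49 for Lum, 2.61 for Col6a3, 1.71 for Postn and 1.5 for Tjp3. The neural and glial genes Ptprz1, Prom1, Hes5, Elavl3, Gfap and Ugt8a gave 3.29, 1.75, -1.72, 1.29, 4.17 and -0.47. The remaining values were -1.08 for Esrrb, -1.43 for Fgl2, 1.14 for Icam1, -2.18 for Dner, 1.24 for Dkk1, -1.19 for Wnt4, -1.39 for Tek and 0.58 for Kdr.

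Of 5383 probes without a symbol, which no comparison above uses, 381 were higher and 399 lower in the difference (14.5%), in 1 fit over all 25725 probes that passed the filter, against 23.9% of probes with a symbol; their median level was -3.25 against -0.45. That joint fit was chosen after a fit of these probes alone had given 123 higher and 126 lower (4.63%).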

How the results depend on the processing

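Most directions held and several counts moved. Over the alternatives, the differences of named genes kept their direction and side of the threshold in 1981 cases, fell short of it in 193, passed anew in 4 and changed sign in 6; those 6 were, with normexp background, Esrrb (0.26), Fgl2 (0.0053), Tek (0.10), Ugt8a (0.30) and Wnt4 (0.072), all dim in some group, and, with the mean over probes, Myc (-0.57). The cause of the other moves was not tested. Of the counts of list members higher or lower in the difference, 524 stayed within 1.5 times and 202 moved further. Median scaling gave 1133 genes higher in the difference. Spike-in scaling, which rests on 8 probes, gave 862 higher and 1044 lower, 2347 higher with W20 in NPC and 1645 at 72 h, with 2082 shared, 636 NPC-only, 606 72 h-only and 303 sign-reversing genes. A threshold of 0.01 gave 884 higher and 1109 lower, 2884 higher with W20 in NPC and 2366 at 72 h, with 2522 shared, 676 NPC-only, 589 72 h-only and 352 sign-reversing genes. Normexp on spot medians, chosen after the files were seen, left 29 strong shared, 39 NPC-only, 28 72 h-only and 28 sign-reversing genes, and made 53.5% of the difference calls higher against 45.2%. This setting adds an offset of 50 intensity units, which by itself makes the log2 differences of dim probes smaller. The median processed signal of the arrays was 57.0 to 66.0 units. Strong shared, NPC-only and 72 h-only genes numbered 133, 139 and 146 at a size of 0.8 log2 units and 38, 34 and 21 at 1.2, and a band of 0.3 left 20 NPC-only and 29 72 h-only genes. Leaving out 1 array gave 774 to 1158 NPC-only genes, lowest without EGFP NPC replicate 2, and 697 to 917 72 h-only genes, lowest without EGFP replicate 1 of 72 h. Replicate numbers were not taken to pair the samples (correlations of deviations from -0.0907 to 0.148 over 6 pairs of groups, 3 of them over 0.1); with the replicate block 1809 genes were higher and 2189 lower, and Col8a2, Icam1, Kdr and Nop2 missed the threshold (adjusted p = 0.0574 to 0.0727). Signal over background limits the dim genes, which have bounds or no size.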

Other observations

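The deposited value table does not hold the 72 h arrays as labelled. Its 4 NPC columns equal their own arrays' log2 signals after a constant shift of 9.66 to 9.71 in 100.0% of probes (within 0.01). The columns of replicate 1 of 72 h equal instead, in 100.0% of probes, the average of the 2 NPC columns with that protein, and those of replicate 2 the mean of both 72 h arrays; they matched their own arrays in 4.1% to 14.1% of probes.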
